A study of Homo sapiens with 4 samples.

Results

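The genes described here are 45 genes of ribosome biogenesis and RNA polymerase I, chosen by name: every row of the deposited table whose gene symbol is on the list. All 45 were found among the 19749 genes of the table, and all 45 had an adjusted p-value. U87, an established human glioblastoma cell line, had been treated with the small molecule YZ129 at 5 µM for 24 h (n = 2 libraries) or with the vehicle DMSO as control (n = 2 libraries), and poly(A)-selected RNA was sequenced. The title of the series places the compound in the HSP90, calcineurin and NFAT pathway, and the one comparison asks which transcripts differ between treated and control cells. The libraries hold RNA of whole cultures, so a change in every cell and a change in the mix of cells cannot be told apart.

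Ribosomes are assembled in the nucleolus. RNA polymerase I transcribes ribosomal DNA into a long precursor, small nucleolar RNPs modify that precursor, and many assembly factors cut it and fold it into the small and the large ribosomal subunit. Growth signals and the transcription factor MYC are known to raise this output, which is often high in tumour cells, and HSP90 is known to help build snoRNPs and RNA polymerases through the R2TP cochaperone complex.

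The deposited file was the authors' own comparison, with no value per library, so every value of a gene below is the authors' log2 fold change ± SE. The values look shrunk towards 0, a step that no source used here records: the largest log2 change among 1372 genes with very few reads was 1.19 in size. Shrinkage, if it was applied, pulls the estimate of a gene with few reads towards 0 more than that of a gene with many. Which group forms the numerator is not stated in the table, whose title mentions DMSO before the compound. A heat shock list held 26 chaperones of the cytosol, mitochondria and endoplasmic reticulum, their cochaperones and regulators such as HSF1. Of these, 12 (46.2%) passed the threshold with a positive value and 0 with a negative one, against 5.24% and 7.64% of all tested genes. By sign 20 were positive and 6 negative, the lowest PTGES3 (-0.47 ± 0.18, adjusted p = 0.065), and HSP90AA1 was near 0 (-0.04 ± 0.14). Inhibitors of HSP90 are known to induce such genes, so a positive value was read as higher with YZ129. If the opposite holds, all directions below turn around. The mean levels are built from 8 separately scaled sets of counts, while 4 libraries are described here. No source used here says whether these sets are further libraries or parts of the same ones. It is also not said whether all 8 entered the fit behind the SEs and p-values. Vimentin (VIM) and CD44 were abundant, with mean levels (normalized signal) of 298885 and 134994 in the authors' deposited table, while the astroglial marker GFAP (52.2) was low and S100B (1.12) and SOX2 (0.851) were close to 0. Of 7 tested astroglial and glioma markers 4 fell and 0 rose, against 7.64% and 5.24% of all tested genes. Of the 17 listed markers of epithelial, blood, neuronal and endothelial cells, 2 had a mean level above 100, CD68 and SNAP25, and 1 of the 7 tested, SNAP25, passed (-1.43 ± 0.17 in the authors' deposited table). Their part in the results below was not tested.

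The promoters of the 3 genes among those that rose for which a window was at hand, and of FBL, the member with the lowest fold change, are shown so that their sequence can be read beside their values. Each covers 250 bases before to 50 bases after a transcript start, 5′ to 3′ on the gene's strand, from RefSeq on GRCh38.p14, a newer build than the hg19 that the submitters' processing notes name. Capitals mark the E-box CACGTG bound by MYC and MAX, the ETS core CCGGAAG and the CCAAT box, on either strand. Where a gene had 2 windows, the one with more matches is printed. LYAR lies at chr4:4289972-4290271 on the minus strand, RRN3 at chr16:15094223-15094522 on the minus strand, DDX10 at chr11:108664819-108665118 on the plus strand and FBL at chr19:39846330-39846629 on the minus strand.
LYAR: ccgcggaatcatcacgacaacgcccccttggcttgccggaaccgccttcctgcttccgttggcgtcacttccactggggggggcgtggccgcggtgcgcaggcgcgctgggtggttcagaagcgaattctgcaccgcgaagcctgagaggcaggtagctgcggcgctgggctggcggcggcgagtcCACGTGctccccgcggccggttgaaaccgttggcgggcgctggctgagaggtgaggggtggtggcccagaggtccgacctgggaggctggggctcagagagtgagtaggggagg
RRN3: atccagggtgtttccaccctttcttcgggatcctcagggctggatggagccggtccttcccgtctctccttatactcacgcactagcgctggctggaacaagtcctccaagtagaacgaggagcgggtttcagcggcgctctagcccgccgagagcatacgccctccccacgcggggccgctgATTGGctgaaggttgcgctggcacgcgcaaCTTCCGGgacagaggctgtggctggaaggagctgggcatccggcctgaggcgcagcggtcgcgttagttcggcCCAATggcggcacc
DDX10: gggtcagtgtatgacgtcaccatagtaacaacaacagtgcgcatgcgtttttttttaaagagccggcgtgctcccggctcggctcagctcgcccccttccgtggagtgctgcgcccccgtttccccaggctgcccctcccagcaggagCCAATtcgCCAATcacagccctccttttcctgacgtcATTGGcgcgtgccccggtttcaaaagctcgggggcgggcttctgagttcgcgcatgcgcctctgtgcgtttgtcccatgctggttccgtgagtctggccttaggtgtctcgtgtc
FBL: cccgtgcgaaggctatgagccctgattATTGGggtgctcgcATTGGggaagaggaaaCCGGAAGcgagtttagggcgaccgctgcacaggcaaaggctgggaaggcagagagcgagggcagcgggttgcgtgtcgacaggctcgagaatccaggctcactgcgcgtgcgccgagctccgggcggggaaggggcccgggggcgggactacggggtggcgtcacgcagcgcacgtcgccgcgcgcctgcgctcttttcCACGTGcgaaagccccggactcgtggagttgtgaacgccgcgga

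Of the 45 genes, 4 rose with YZ129, 0 fell and 41 did not pass, with an adjusted p under 0.05 in the authors' table as the threshold. The 4 were LYAR, RRS1, RRN3 and DDX10, and each rose by less than 1.5-fold. The rises made up 8.89% of the members, against 5.24% of all 14812 tested genes and 3.89% of the 8117 tested genes in the members' range of mean level. Falls made up 7.64% of all tested genes and 9.98% of those in that range. Calls in either direction made up 12.9% and 13.9%, against the 8.89% of the members. The share of rises rests on 4 genes, and its difference from the other shares was not tested. At an unadjusted p under 0.05 there were 11 members, 10 positive and 1 negative, in the authors' deposited table, whose columns are those of DESeq2. These 11 were 24.4% of the members, against 24.9% of all tested genes. By sign the members had 22.2% positive and 2.22% negative, against 10.5% and 14.5% of all tested genes, and the difference in sign was not tested.

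Most of the members had small positive values and did not pass. Positive values were found for 36 of 45 members (80.0%), against 44.0% of all tested genes and 33.5% of those in the members' level range. The median log2 fold change of the members was 0.19, against -0.05 for all tested genes and -0.11 for the genes in that level range. Values ran from -0.34 for FBL to 0.55 for LYAR. The SD among the 45 fold changes was 0.20 on the log2 scale, and the root mean square of their deposited SEs was 0.16. Whether the members varied among themselves by more than their error was not tested. No member's 95% interval reached a log2 change of 1 in size: the highest upper bound was 0.84 and the lowest lower bound was -0.64.

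**Figure D1:**
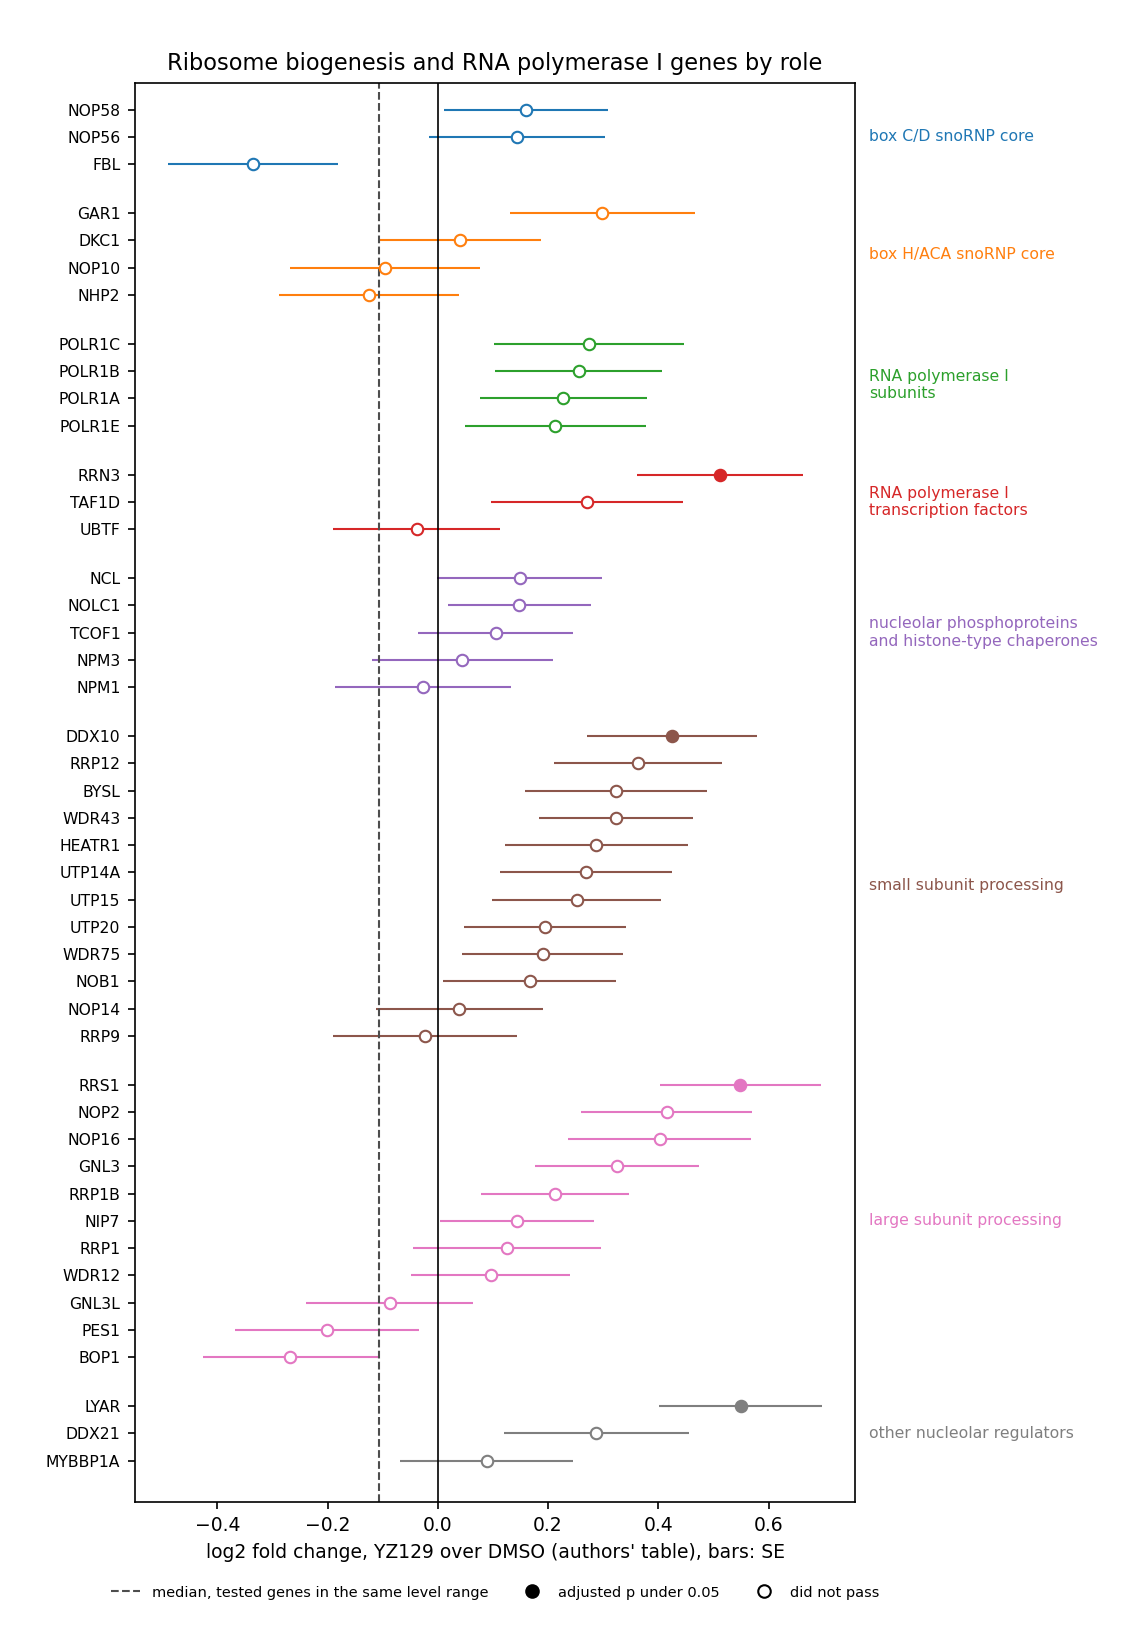
Log2 fold change, YZ129 over DMSO, of each of the 45 genes, grouped by role, with bars of 1 SE from the authors' deposited table. Filled points passed an adjusted p of 0.05, and the dashed line is the median of tested genes in the same range of mean level (-0.11). The 4 filled points lie between 0.42 and 0.55, and 9 points lie below 0.

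The subunits and factors of RNA polymerase I among the members, which come first in the pathway, lay above 0 with 1 exception. In the authors' deposited table the catalytic subunit POLR1A had 0.23 ± 0.15, POLR1B, its partner in the active site, 0.26 ± 0.15, POLR1C, which RNA polymerase III also uses, 0.27 ± 0.17, and POLR1E 0.21 ± 0.16. None of these 4 subunits passed, and their fold changes differed from one another by less than 1 SE. RRN3, the initiation factor that joins the polymerase to the promoter under growth control, rose 1.43-fold in the authors' deposited table (0.51 ± 0.15, 95% interval 0.22 to 0.81, DESeq2-type adjusted p = 0.0089, mean level 2857). TAF1D, a subunit of the promoter selectivity factor, had 0.27 ± 0.17, and UBTF, which binds and opens ribosomal DNA, had -0.04 ± 0.15 in the authors' deposited table. Under the stricter Benjamini-Yekutieli adjustment RRN3 did not pass (adjusted p = 0.091, over its 9 alternatives 0.0014 to 0.091). RRN3 has near-identical pseudogene copies, and reads may be shared among them. In the authors' deposited table RRN3P3 also passed (0.83 ± 0.27, adjusted p = 0.023, mean level 111), while RRN3P1 and RRN3P2 had mean levels of 2.12 and 6.45 and no adjusted p.

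The snoRNP cores gave 0 calls among 7 genes, too few to compare with the 12.9% of all tested genes called in either direction. Box C/D particles methylate the precursor: the scaffold proteins NOP56 and NOP58 had 0.14 ± 0.16 and 0.16 ± 0.15 in the authors' deposited table, and the methyltransferase FBL had -0.34 ± 0.15 (unadjusted p = 0.029, adjusted p = 0.14). FBL was the 1 member whose 95% interval, -0.64 to -0.03, lay wholly below 0. Box H/ACA particles convert uridine to pseudouridine: the synthase DKC1 had 0.04 ± 0.15, and its partners GAR1, NHP2 and NOP10 had 0.30 ± 0.17, -0.12 ± 0.16 and -0.10 ± 0.17 in the authors' deposited table. The 4 H/ACA values straddled 0, with a median of -0.03.

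The nucleolar phosphoproteins and chaperones had values close to 0. In the authors' deposited table nucleolin (NCL) had 0.15 ± 0.15 at a mean level of 35747, and nucleophosmin (NPM1), a histone chaperone that also shuttles pre-ribosomes, had -0.03 ± 0.16 at 58748. Its smaller relative NPM3 had 0.04 ± 0.16, and the scaffold proteins NOLC1 and TCOF1 (treacle), which link snoRNPs and polymerase I, had 0.15 ± 0.13 and 0.10 ± 0.14 in the authors' deposited table. All 5 lay within -0.03 to 0.15, and 0 passed, against 12.9% of all tested genes.

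Factors of the small subunit were positive in 11 of 12 cases (91.7%, against 44.0% of all tested genes). Of the 12, 1 rose (8.33%, against 5.24% of all tested genes). The helicase DDX10 rose 1.34-fold in the authors' deposited table (0.42 ± 0.15, 95% interval 0.12 to 0.73, DESeq2-type adjusted p = 0.048, mean level 1340), just inside the threshold. It did not pass when genes of very low level were kept in the adjustment. RRP12, a factor of late pre-ribosomes and their export, came next with 0.36 ± 0.15 and an adjusted p of 0.097 in the authors' deposited table. Of the early complex that links transcription to processing, HEATR1 had 0.29 ± 0.17, UTP15 0.25 ± 0.15, WDR43 0.32 ± 0.14 and WDR75 0.19 ± 0.15 in the authors' deposited table. Other components of the processome were UTP14A (0.27 ± 0.16), UTP20 (0.19 ± 0.15), NOP14 (0.04 ± 0.15) and RRP9 (-0.02 ± 0.17), in the authors' deposited table. BYSL and the endonuclease NOB1, which act on late precursors, had 0.32 ± 0.16 and 0.17 ± 0.16 in the authors' deposited table. These 12 values had a median of 0.26.

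Large subunit factors covered the widest range of fold changes of the 8 roles. RRS1, which helps bring ribosomal proteins and their RNA into the early particle, rose 1.46-fold in the authors' deposited table (0.55 ± 0.15, 95% interval 0.26 to 0.84, DESeq2-type adjusted p = 0.0031, mean level 1808). The rRNA methyltransferase NOP2 had 0.42 ± 0.15 and the assembly factor NOP16 0.40 ± 0.17 in the authors' deposited table, with adjusted p of 0.055 and 0.094, the smallest of all members that did not pass. Against them stood PES1 (-0.20 ± 0.17) and BOP1 (-0.27 ± 0.16), which form one complex with WDR12 (0.10 ± 0.14), in the authors' deposited table. RRP1, RRP1B and NIP7 had 0.13 ± 0.17, 0.21 ± 0.13 and 0.14 ± 0.14 in the authors' deposited table. The 11 values ran from -0.27 to 0.55 with a median of 0.14.

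Paralogs within the list were set side by side. The GTPase GNL3 (nucleostemin) had 0.33 ± 0.15 and its relative GNL3L -0.09 ± 0.15 in the authors' deposited table, a difference of 0.41 with a 95% interval of -0.0045 to 0.83 if their errors are independent. For NOP58 minus NOP56 the difference was 0.02 (interval -0.41 to 0.44), for RRP1B minus RRP1 0.09 (-0.34 to 0.51) and for NPM3 minus NPM1 0.07 (-0.38 to 0.52). These intervals are wide, and a difference of 0.4 within any of these pairs could be missed.

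Among the other nucleolar regulators, LYAR rose 1.46-fold in the authors' deposited table (0.55 ± 0.15, 95% interval 0.26 to 0.84, DESeq2-type adjusted p = 0.0035, mean level 2199). LYAR is a nucleolar zinc finger protein that supports precursor processing. The helicase DDX21, which senses polymerase activity, had 0.29 ± 0.17 at a mean level of 14807, and MYBBP1A, a nucleolar protein that binds Myb, had 0.09 ± 0.16 in the authors' deposited table.

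The change of a gene went with its mean level in the table, and the members are well expressed. Their mean levels ran from 767 (POLR1C) to 58748 (NPM1), where the median change of tested genes was below 0. When the median of genes in the same decile of mean level was subtracted, the median of the members became 0.30 and 41 of 45 were positive. On that scale 9 members (20%) rose and 0 fell, against 6.21% and 5.43% of all tested genes. The 5 added were NOP2, RRP12, WDR43, GNL3 and NOP16.

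**Figure D2:**
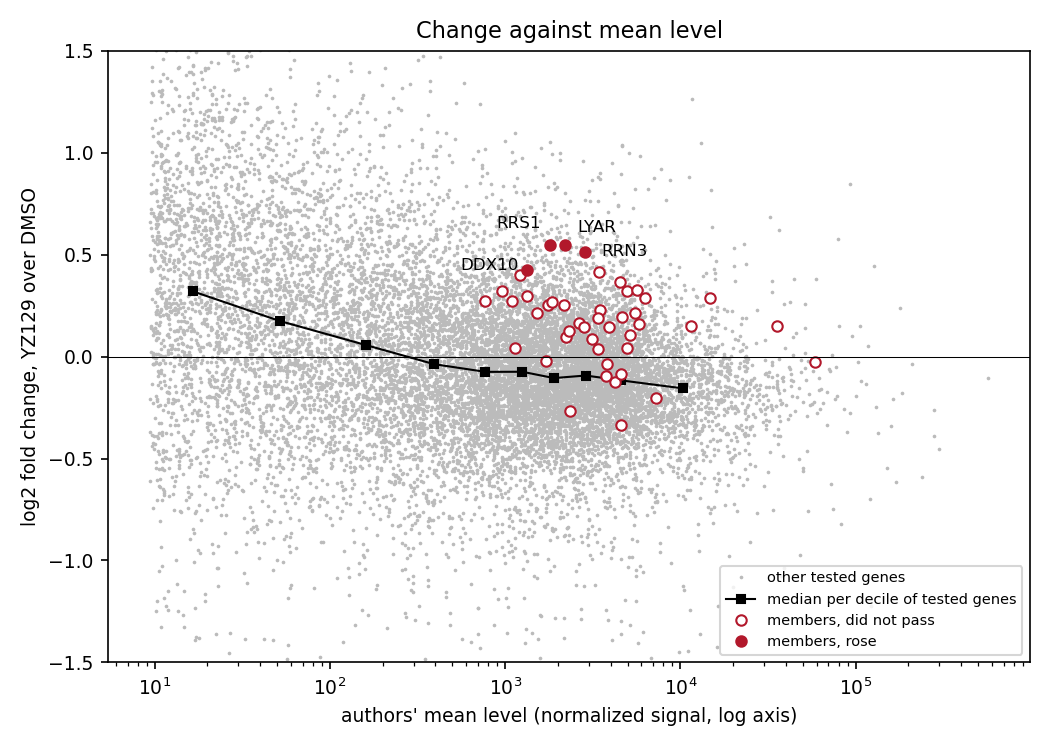
Log2 fold change, YZ129 over DMSO, against the authors' mean level on a log axis, for tested genes (grey) and the 45 members (red, filled where they rose). Black squares are medians over deciles of the tested genes by level, and 182 genes lie outside the plotted range of -1.5 to 1.5. The members sit between 767 and 58748, and 41 of 45 lie above the median of their decile.

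The ribosome's own proteins had mostly negative values, unlike the 45 members. Of 46 large subunit ribosomal protein genes 0 were called in either direction (12.9% of all tested genes were) and 0 had an unadjusted p under 0.05 (24.9% had). Of these 46, 43 had a negative value (93.5%, against 66.5% of tested genes in the members' level range), with a median of -0.11. Of 31 small subunit ribosomal protein genes 0 were called, also at an unadjusted p under 0.05, and 30 were negative, with a median of -0.15. These medians are close to that of all tested genes in the members' level range (-0.11), as given by the authors' deposited table with DESeq2 columns. The members' median was 0.19. The difference between the sets was not tested. The sets also differed in abundance: the median of mean levels was 3389 for the members. It was 18360 for the large and 18016 for the small subunit ribosomal proteins. In the decile of mean level that holds DDX21 (14807) and NCL (35747) the median change of tested genes was -0.16.

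**Figure D3:**
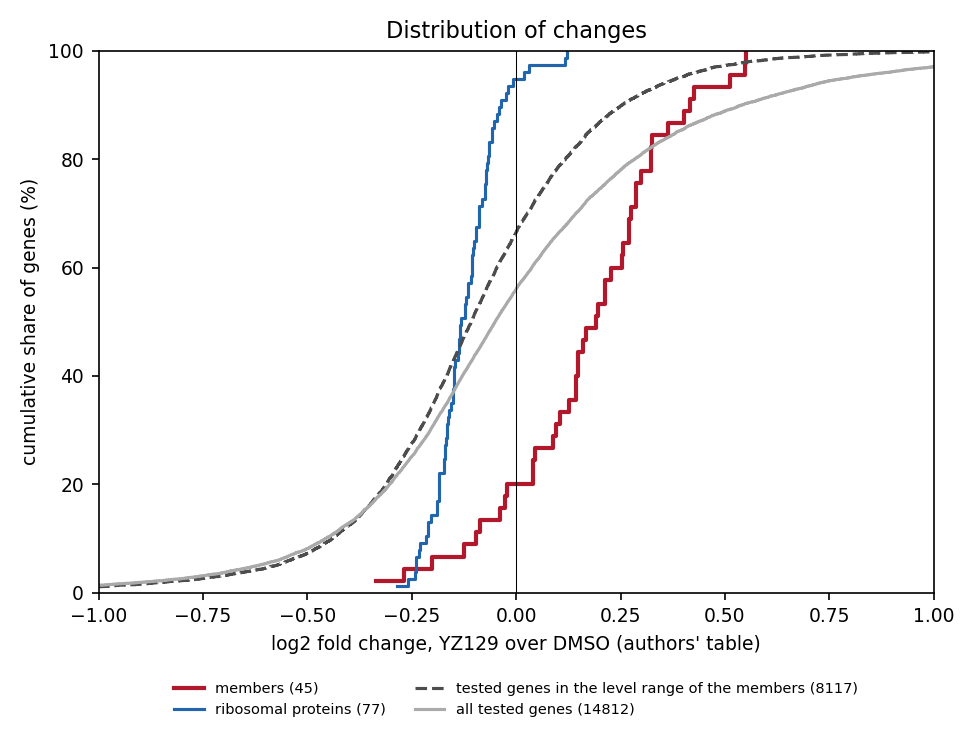
Cumulative share of genes, in %, by log2 fold change, YZ129 over DMSO, for the 45 members, 77 ribosomal protein genes, the tested genes in the members' level range and all tested genes. The curve of the members crosses 0 at 20% and that of the genes in the level range at 66.5%, and the ribosomal protein genes lie in a narrow band, 73 of 77 of them below 0.

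Other genes of the pathway were taken from lists by function. Over 6 lists with 131 tested genes, 6 rose, 1 fell and 78 were positive, with a median of 0.08. Rises made up 4.58%, close to the 5.24% of all tested genes, and falls 0.763%, against 7.64%. Among other factors of the small subunit processome 3 of 31 rose and 1 fell, with a median of 0.10: in the authors' deposited table ESF1 (0.64 ± 0.18), PDCD11 (0.50 ± 0.15) and DIEXF (0.46 ± 0.15) rose, and IMP3, a partner of the processome's guide RNA, fell (-0.51 ± 0.15). Factors of export and cytoplasmic maturation gave 3 rises among 19 and a median of 0.11. These were ZNF622 (0.47 ± 0.15), SBDS (0.42 ± 0.14), the protein mutated in Shwachman-Diamond syndrome, and the kinase RIOK2 (0.42 ± 0.16), in the authors' deposited table.

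The other 4 lists gave 0 calls in the authors' deposited table with DESeq2 columns, where 12.9% of all tested genes were called in either direction. The 41 other large subunit factors had a median of 0.14, with 29 positive and 7 at an unadjusted p under 0.05. The 13 other subunits and factors of RNA polymerase I, some shared with polymerases II and III, had a median of 0.07. Of these, 7 were positive and 6 negative, with 2 at an unadjusted p under 0.05. The 16 genes of the RNA exosome and precursor decay had a median of -0.03, with 2 at an unadjusted p under 0.05. The 11 genes of snoRNP assembly with the R2TP and HSP90 system had a median of -0.05 and 1 at an unadjusted p under 0.05, PIH1D1, a core subunit of R2TP (-0.35 ± 0.16, adjusted p = 0.15, in the authors' deposited table).

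**Figure D4:**
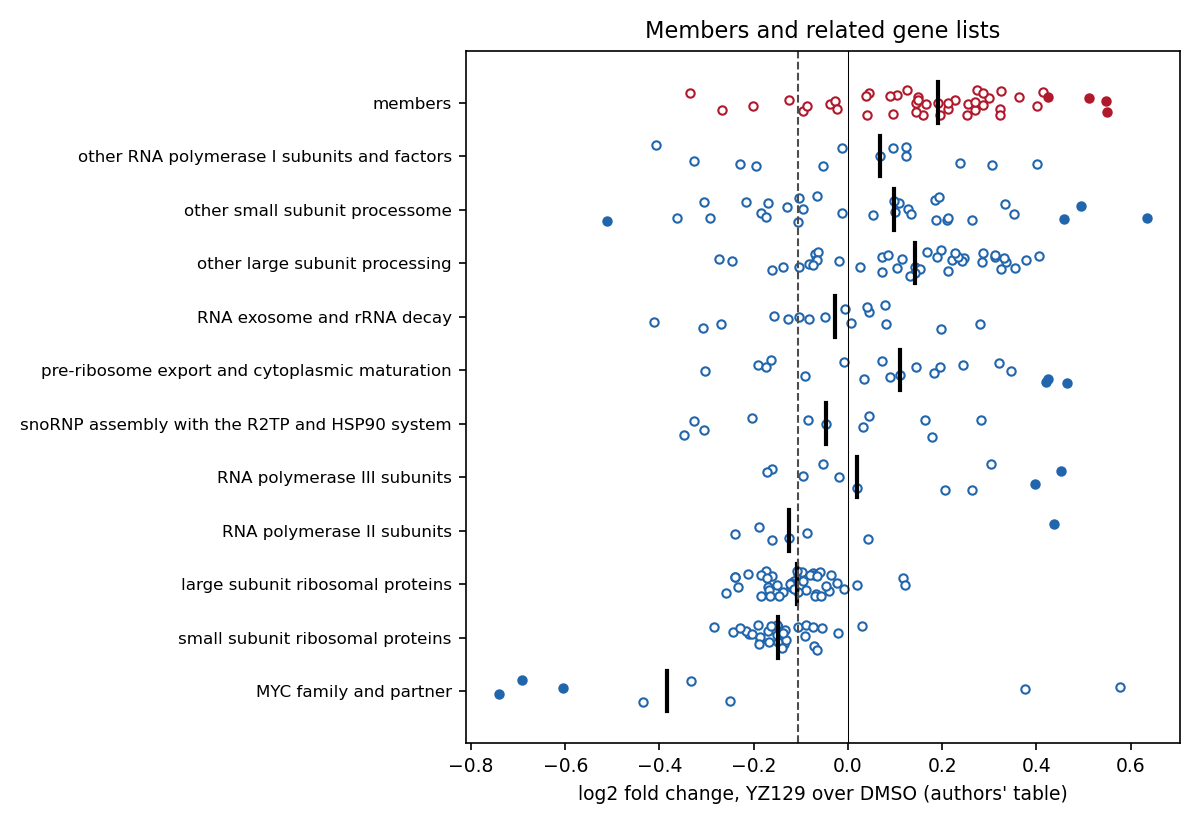
Log2 fold change, YZ129 over DMSO, of the 45 members (red) and of the genes of 11 other lists (blue). Filled points passed an adjusted p of 0.05, black bars are medians, and the dashed line is the median of tested genes in the members' level range (-0.11). The median of the members is 0.19, those of the ribosomal protein lists are -0.11 and -0.15, and that of the MYC family is -0.38.

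MYC, the factor best known to drive these genes, was lower with YZ129. In the authors' deposited table MYC fell (-0.61 ± 0.14, DESeq2-type adjusted p = 0.00041, mean level 4004), as did its antagonists MXI1 (-0.74 ± 0.16) and MXD3 (-0.69 ± 0.20). Of 8 tested genes of the MYC family and its partners 3 fell (7.64% of all tested genes fell) and 0 rose. Their median was -0.38. The other 5 did not pass: MAX, the shared partner, had -0.25 ± 0.14, and the repressors MNT and MXD4 had -0.33 ± 0.15 and -0.44 ± 0.17 in the authors' deposited table. The antagonist MXD1 had 0.37 ± 0.18 and MYCL1, a relative of MYC, 0.58 ± 0.43 in the authors' deposited table, both positive.

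A promoter window was matched for 37 of the 45 members. The E-box CACGTG, which reads the same on both strands, was found in 15 of the 37 (40.5%), against 1285 of 10435 tested genes (12.3%) and 7.26% of all 35116 windows of the same length. It was also found in 26 of 102 matched genes of the 6 lists (25.5%). Members carrying it were BYSL, DDX21, FBL, GAR1, GNL3, LYAR, MYBBP1A, NOP10, NOP14, NOP2, PES1, RRP9, UTP14A, UTP20 and WDR43. Their median log2 fold change was 0.27 with a range of -0.34 to 0.55, and 11 of 15 were positive. The 22 members with a window and no E-box had a median of 0.16 and a range of -0.12 to 0.51, and 18 were positive. The printed windows show both ends of this: LYAR, the highest member, has an E-box that begins at position -64, with the start base as 0, FBL, the lowest, has one that begins at position 6, and RRN3 and DDX10 have none. A heat shock element core, GAANNTTC on either strand, was found in 1 of 37 members, POLR1A, against 6.90% of tested genes. The ETS core CCGGAAG was found in 12 members (32.4%, against 20.8% of tested genes) and CCAAT in 14 (37.8%, against 43.2%). A match says that these letters are in the window, not that a factor binds there.

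Reads of overlapping genes could not be told apart, since no source used here states that strand was counted. By GENCODE release 29, 13 of the 45 members share exon bases with another gene matched by symbol, and none of the 4 that rose is among them. Genes that stand in the authors' table under an older symbol were not matched, so further overlaps are possible. The largest shares of a member's exon bases were 27.4% for NHP2 with RMND5B, 23.2% for HEATR1 with LGALS8, 20.2% for NIP7 with COG8 and 17.1% for NOP14 with its antisense gene NOP14-AS1. In the authors' deposited table these partners had -0.12, -0.29, -0.01 and -0.17 and did not pass. TAF1D, NOP56, DKC1 and GNL3 hold snoRNA or microRNA genes within annotated exons, which the table lists separately.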

How the data were processed

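TopHat2 2.0.12, Cufflinks 2.2.1, Cuffdiff and build hg19 are named, without roles, in the submitters' processing notes. Per the file headers the columns are those of a DESeq2 results table; its version, counter and annotation are not stated. For each gene the authors deposited a mean level (normalized signal), a log2 fold change with its SE, a Wald score, and p-values before and after adjustment. The deposited score equalled fold change over SE, and the adjusted p-value a Benjamini-Hochberg adjustment over 14812 genes; 4937 genes at or under a mean level of 9.43 had none. Mean levels of the 1372 genes with few reads were sums of 8 read steps (tolerance 1e-07), so the mean covers 8 sets of counts. Only 4 libraries are described here. The sets may be further libraries or parts of the same ones, and all 8 may have entered the fit. The largest log2 change of the 1372 genes was 1.19 in size. Depth in reads is unknown. Labels do not say that libraries came from separate cultures, so p-values measure their spread only, which may be technical. A call is the deposited adjusted p under 0.05, across all tested genes. Intervals are 95% normal intervals from the deposited SE. The adjustment was tested on simulated data (Python 3.11.15, scipy 1.17.1). Members and lists were chosen with earlier results of these data known. All 45 members are named; in other lists the called genes are named, and RRN3 pseudogenes, overlapping genes, MAX, MNT, MXD1, MXD4, MYCL1 and PIH1D1 were named after their values were seen. The direction of the fold changes was read from heat shock genes. One further list is not reported here.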

Additional observations from a re-analysis of the deposited data

How the results depend on the processing

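At adjusted p under 0.1 members that rose numbered 7, under Benjamini-Yekutieli adjustment 2, with a log2 change of at least 1 0, and centred on the decile of mean level 9; 3 rose at adjusted p under 0.01, with a change of at least 0.5 or with no filter on low values, and 5 with a mean level of at least 100 or centred on the median of all tested genes (4 as deposited). Members that fell numbered 0 in all 9 alternatives, while 1.17% to 10.2% of all tested genes fell. Rises were 15.6% of members against 7.26% of all tested genes at adjusted p under 0.1, and 4.44% against 2.48% under Benjamini-Yekutieli. They were 0% against 1.61% at a change of at least 1, and 20% against 6.21% centred on the decile. The counts of 3 were 6.67%, against 3.01%, 4.48% and 3.62% in the order given. The counts of 5 were 11.1%, against 5.43% and 6.44%. DDX10 was lost under 5 of the 9, RRN3 under Benjamini-Yekutieli and with a change of at least 1, and LYAR and RRS1 only with a change of at least 1. In the 6 related lists rises numbered 1 at adjusted p under 0.01 and with a change of at least 0.5, 11 at adjusted p under 0.1 and centred on all genes, 15 centred on the decile of level, and 0 under Benjamini-Yekutieli and with a change of at least 1 (6 as deposited); falls numbered 3 at adjusted p under 0.1, and 0 under Benjamini-Yekutieli, with a change of at least 1 and centred on the decile of level (1 as deposited). Over all tested genes rises and falls numbered 446 and 698 at adjusted p under 0.01, 367 and 583 under Benjamini-Yekutieli, and 239 and 174 with a change of at least 1 (776 and 1132 as deposited). Rises made up 40.7% of those calls as deposited, 51.9% centred on all genes and 53.4% centred on the decile. Centring turned members near 0 positive: on all genes UBTF (0.0117), NPM1 (0.0225) and RRP9 (0.0277), and on the decile NOP10 (0.0202), UBTF (0.0778), NPM1 (0.129), RRP9 (0.0828) and GNL3L (0.0289). The median of the members was 0.19 as deposited, 0.24 centred on all genes, 0.30 centred on the decile and 0.17 at mean levels of at least 1000. Their mean was 0.17. A minimum level of 100 left out no member, so it could not move the median. No paired analysis was possible because the table holds no values per library, and for the same reason no library could be left out in turn.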

Other observations

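Subunits of the other nuclear RNA polymerases gave 0 falls. Of 11 subunits of RNA polymerase III 2 (18.2%) rose in the authors' deposited table, POLR3D (0.45 ± 0.15, DESeq2-type adjusted p = 0.031) and POLR3E (0.40 ± 0.14, adjusted p = 0.045), 0 fell and the median was 0.02. Of 7 subunits of RNA polymerase II outside the shared ones 1 (14.3%) rose, POLR2A, its catalytic subunit (0.44 ± 0.16 in the authors' deposited table, adjusted p = 0.047), 0 fell and the median was -0.13. Over all tested genes 5.24% rose and 7.64% fell, and with so few subunits the shares rest on 3 genes.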
